A study of Mus musculus with 4 samples.

Results

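In mouse mesenchymal stem cells, 4620 stretches of chromatin carried exactly 1 H4K20me1 region in a mixed culture and exactly 1 overlapping region in a clone. Each such pair joins 1 region of the MSC21 population with 1 region of the clone 4L.1.4. The 2 regions share at least 1 bp, and neither shares a base with any other region of the other culture. The pairs were therefore chosen by the positions of the calls themselves, and overlap is not a result here. Chromosomes 11 and 13 were left out. Of 25001 population regions on the other chromosomes, 18.5% belonged to a pair, and of 10535 clone regions 43.9% did. Over the whole series the lists held 28166 and 11809 regions, with 5204 such pairs on all chromosomes.

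H4K20me1 is histone H4 with a single methyl group on lysine 20. The methyltransferase KMT5A writes it, KMT5B and KMT5C extend it to higher methylation states, and demethylases such as PHF8 remove it. It is known from the bodies of transcribed genes, where it can form long continuous domains, from the inactive X chromosome and from the compaction of chromosomes in mitosis.

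Chromatin immunoprecipitation and sequencing (ChIP-seq) was done on bone marrow cells of C57BL/6 mice grown to confluence, and no other treatment is named. The population is a mixed culture, whereas 4L.1.4 is a single clone, whose parent culture the labels do not name. For each culture 1 library was made with an antibody to H4K20me1 and another, not analysed here, with rabbit serum, so each H4K20me1 group held 1 library. Their identity as mesenchymal cells could not be checked, since no marker was measured. Without replicates, nothing could be tested against the spread between cultures, and no p-value is given. All 95% intervals are exact Clopper-Pearson intervals for shares and order-statistic intervals for medians. They cover counting error only and treat pairs as independent, although neighbouring pairs were not. The lists give positions in mm9 without a read count or score, so the depth behind each region is unknown. The gene table at hand was of another build, so no gene names or sequences are attached to these regions.

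Paired regions were wider than regions without any overlap. Paired population regions had a median width of 5205 bp (quartiles 2714.5 and 9916.25 bp), against 1631 bp for population regions without any overlap. Clone regions of pairs had a median width of 3889.5 bp (quartiles 2386.75 and 7586 bp), against 2611 bp for clone regions without overlap. Pairs held 35.8 Mb of the population's marked sequence and 29.7 Mb of the clone's. Of these, 26.9 Mb were common to both, which was 75.2% of the population part and 90.9% of the clone part. Because a wide region meets another region more easily, a greater width is partly built into the choice of pairs. Single pairs made up 67.6% of the 6835 groups of overlapping regions on these chromosomes. The other 2215 groups held several regions of at least 1 culture: 1082 had 1 population and several clone regions, 859 the reverse and 274 several of both.

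Edges of the 2 cultures lay mostly within 1000 bp of each other. The median distance between starts was 388 bp (95% interval 359 to 415 bp, quartiles 116.75 and 1206.25 bp). Between ends it was 421.5 bp (392 to 455 bp, quartiles 131 and 1253.5 bp). Starts and ends thus gave like distances, and the tails were long: the largest start distance was 60663 bp and the largest end distance 64798 bp. Exactly equal starts were found in 10 pairs and exactly equal ends in 4. Both edges were within 500 bp in 1449 pairs (31.4%, 30.03 to 32.7%), where 500 bp was a fixed tolerance. Over all 7686 groups of overlapping regions on all chromosomes, the share with both outermost edges this close was 29.9%. Exactly 1 edge was within 500 bp in 2127 pairs (46.0%, 44.6 to 47.5%), and neither was in 1044 (22.6%, 21.4 to 23.8%).

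Clone edges tended to lie inside the population edges. The clone region started further in than the population region in 2888 pairs and further out in 1722. It ended further in in 2909 pairs and further out in 1707. On balance the 2 sides cancelled, and the centres differed by a median of -0.25 bp (clone minus population, quartiles -383.4 and 368.6 bp). The whole clone region lay within the population region in 2103 pairs (45.5%, 44.1 to 47.0%). The reverse arrangement was found in 921 pairs (19.9%, 18.8 to 21.1%). The remaining pairs were staggered about equally in each direction, with the clone shifted toward higher coordinates in 789 and toward lower ones in 807.

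The 2 edges of a pair often differed by unlike amounts. Among the 2127 pairs with 1 close edge, that edge was the start in 1096 and the end in 1031. The far edge was pulled in, in the clone, in 1317 of them (61.9%), by a median of 1359 bp (quartiles 830 and 2741 bp). In 810 it reached further out, by a median of 1087 bp (quartiles 734.25 and 1888 bp). Of the pairs in which the clone lay inside and was at least 1000 bp narrower, 1430 in number, the side that differed more held a median of 81.9% of the difference (80.2 to 83.2%). In 474 of these pairs (33.1%) a single side held at least 90% of it. The side that differed more was the start in 718 of the 1430, so neither side was favoured. The 480 pairs with the population inside and the clone at least 1000 bp wider gave nearly the same median, 81.6% (78.2 to 83.9%). Pairs with 1 close edge are unequal by definition, and the side that differed more always holds the larger share. No value for unrelated edges was computed, so these shares do not show one-sided change as a trait of the pairs.

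Clone regions were slightly narrower than their partners. The clone was the narrower in 2920 pairs and the wider in 1700 (36.8%, 35.4 to 38.2%), and no pair had equal widths. Over all groups of overlapping regions, clone regions covered more base pairs than population regions in 37.2%. The median log2 ratio of clone to population width was -0.09 (-0.10 to -0.07, quartiles -0.59 and 0.12). Changes of at least 2-fold were in the minority. The clone was at least 2-fold narrower in 711 pairs (15.4%, 14.4 to 16.5%), against 14.1% of all groups by covered base pairs. It was at least 2-fold wider in 343 pairs (7.42%, 6.68 to 8.22%), against 6.49% of all groups. These shares lay near those of all groups, of which the pairs are the larger part. Widths of the partners were correlated across pairs (Spearman correlation 0.67 over 4620 pairs that share 2 libraries).

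**Figure D1:**
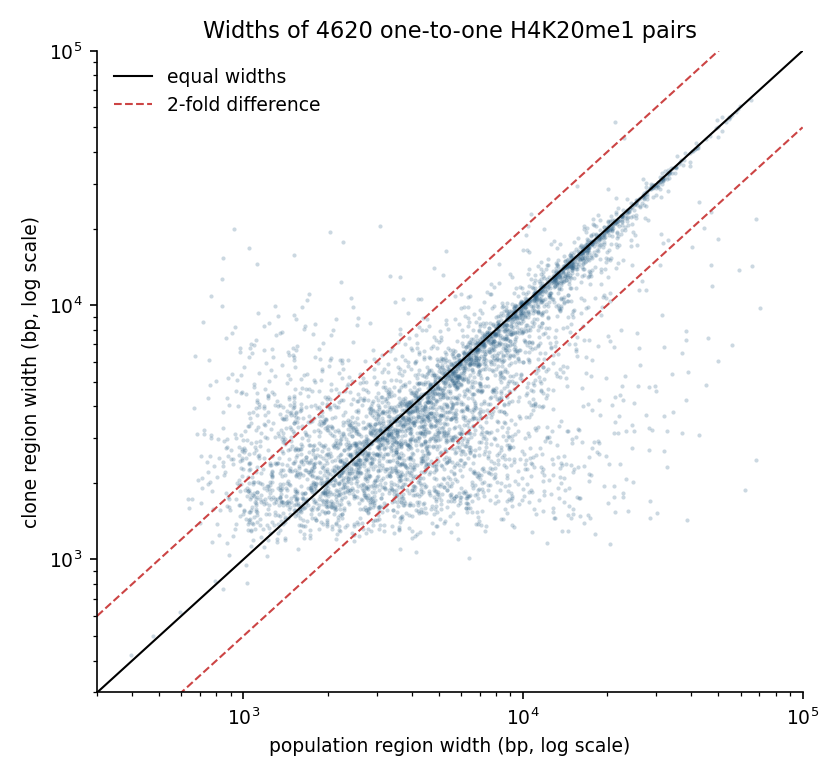
Width of the population region (horizontal, bp, log scale) and of the clone region (vertical, bp, log scale) of each of 4620 pairs, with lines for equal widths and for a 2-fold difference. Wide pairs crowd on the line of equal widths, while below it a band of pairs has wide population and narrow clone regions.

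Agreement depended on width. In the 769 pairs with both regions at least 10000 bp wide, the median distance was 212 bp at starts (185 to 234 bp) and 225 bp at ends (193 to 267 bp). Against their width this was small, the mean of the 2 edge distances being a median of 2.33% of the mean width. The common part made up a median of 95.4% of the stretch covered by either region (94.8 to 96.0%), and both edges were within 500 bp in 343 of these pairs (44.6%, 41.1 to 48.2%). In the 304 pairs with both regions under 2000 bp, the distances were of a like size, 178 bp at starts and 186 bp at ends. These were a larger part of so narrow a region, and the common part was 75.8% of the stretch. Both edges were within 500 bp in 207 of them (68.1%, 62.5 to 73.3%), so by this fixed distance the narrow pairs were the closer, while by the common share the wide pairs were. Requiring both regions to be wide, or both to be narrow, itself leaves out pairs of unlike width. Overlapping regions that are both under 2000 bp also cannot have edges 2000 bp or more apart. Their short distances are thus partly set by the choice, and no value for unrelated edges was computed.

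In classes by the mean of the 2 widths, median distances were largest at intermediate widths. Median start distances were 230.5 bp under 2000 bp (500 pairs), 460.5 bp at 2000 to 5000 bp (1970 pairs) and 532 bp at 5000 to 10000 bp (1209 pairs). They were 279 bp at 10000 to 20000 bp (693 pairs) and 257 bp from 20000 bp on (248 pairs). End distances followed the same order up to 10000 bp, at 249.5, 471 and 564 bp, and were 345 and 209 bp in the wider classes. The intervals of the 5000 to 10000 bp class (469 to 622 bp for starts) did not meet those of the narrowest class (192 to 275 bp) or the wider ones (234 to 328 and 212 to 328 bp). The class setting bears on this order, since a pair of unlike widths has large distances and an intermediate mean. Distances in the narrowest class are also limited by its widths. By clone width, the largest medians were at 2000 to 5000 bp, 476 bp at starts and 498 bp at ends. At 5000 to 10000 bp they were 417 and 394 bp. The common share of the covered stretch was 67.0%, 64.4%, 77.6%, 91.7% and 96.5% from the narrowest to the widest class.

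**Figure D2:**
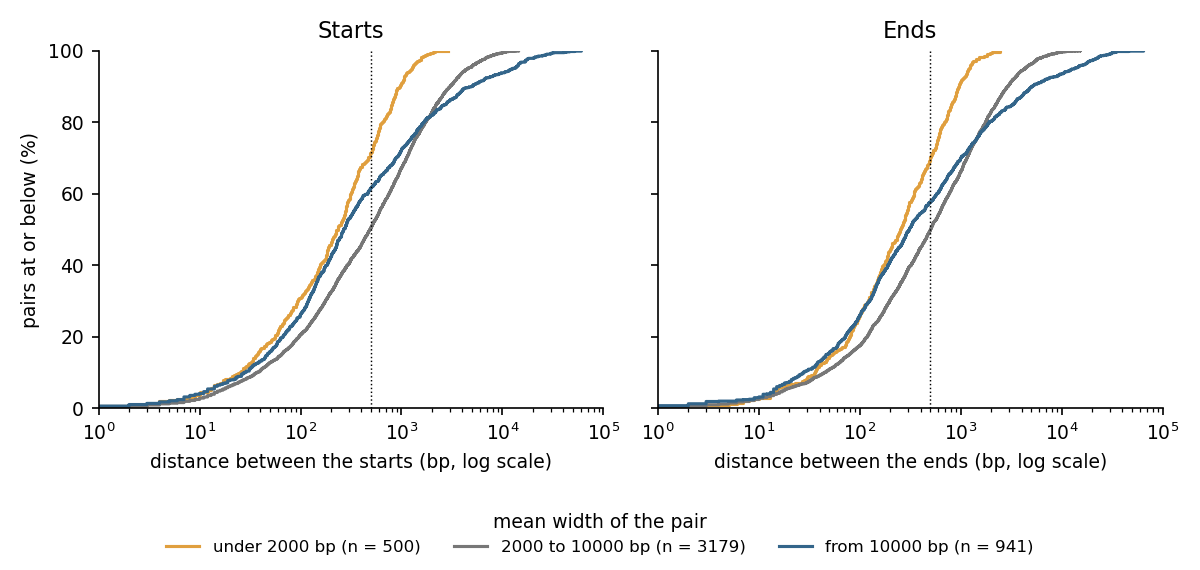
Cumulative share of pairs (vertical, %) by the distance between the 2 starts (left) and the 2 ends (right) in bp on a log scale, with 1 line per class of mean width and a dotted line at 500 bp. The line for pairs from 10000 bp on lies above the 2000 to 10000 bp line at short distances and below it at the longest ones, where distances reach 60663 bp at starts and 64798 bp at ends.

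Width change also differed by class. The median log2 width ratio was 0.29 (0.20 to 0.38) under 2000 bp, where the clone was the wider in 351 of 500 pairs. It was -0.15 (-0.18 to -0.12) at 2000 to 5000 bp, -0.20 (-0.23 to -0.17) at 5000 to 10000 bp and -0.06 (-0.08 to -0.04) at 10000 to 20000 bp. From 20000 bp on it was -0.02 (-0.02 to -0.01). The sign in the narrowest class rested on how the class was set. By population width, the median under 2000 bp was 0.74, and by clone width it was -0.56, since a class set on 1 width selects pairs in which the other is larger. The clone list also held few narrow regions: 7 clone regions and 110 population regions of pairs were under 1000 bp wide. In the classes from 2000 bp on the median lay below 0 under each of the 3 ways of setting classes. By clone width from 20000 bp on, though, it was -0.0053 with an interval that held 0 (-0.014 to 0.0006).

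**Figure D3:**
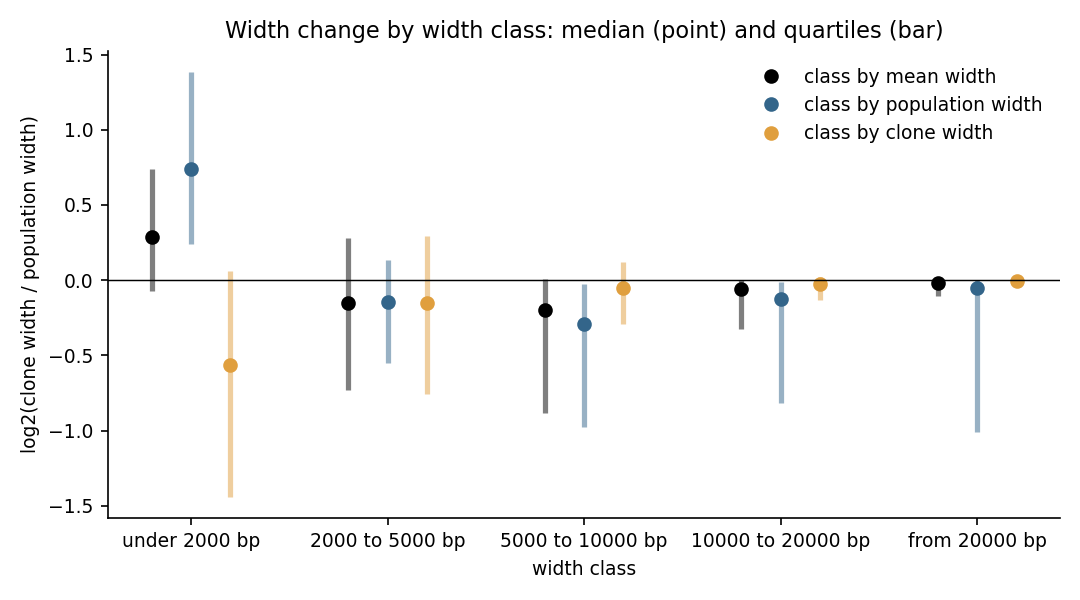
Log2 ratio of clone to population width (vertical) by width class (horizontal), with the median as a point and the quartiles as a bar, for classes set on the mean, the population or the clone width. The narrowest class has medians of 0.29, 0.74 and -0.56 by these 3 settings, and the medians approach 0 in the wider classes.

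Wide population regions mostly met a clone region of nearly equal width, while another set met a far narrower one. Of 321 pairs with a population region of at least 20000 bp, the clone width was within 10% of the population width in 188 (58.6%, 53.0 to 64.0%). In 45 it was narrower by more than that but less than 2-fold, and in 18 it was narrower by 2-fold to 4-fold. In 63 pairs (19.6%, 15.4 to 24.4%) it was at least 4-fold narrower, with a median clone width of 3391 bp in population regions of 28127 bp. Fewer pairs thus lay between 2-fold and 4-fold than beyond 4-fold. In the other direction, 219 pairs had a clone region of at least 20000 bp, and the clone was at least 2-fold wider in 1.83% of them. By contrast, the clone was at least 2-fold narrower in 25.2% of the 321 pairs with a wide population region. The choice of pairs bears on these shares, since a wide region that meets several regions of the other culture is left out. With 25001 population and 10535 clone regions, this need not act equally in the 2 directions. How much of the difference the choice sets was not tested.

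The pairs with most sequence in common showed how closely broad domains could match. The longest common part lay on chromosome 1, where the population region (39958243 to 40023793) spanned 65.6 kb and the clone region (39959597 to 40023831) 64.2 kb. Its clone region started 1354 bp further in and ended 38 bp further out. Chromosome 10 held 2 of the next pairs. In one, the population (116526561 to 116585316) and clone (116526294 to 116585143) regions spanned 58.8 and 58.9 kb, and 99.3% of the stretch was common. In the other (115962038 to 116017954 and 115962128 to 116018108) they spanned 55.9 and 56.0 kb, and 99.6% was common. On chromosome 19 the regions (3517918 to 3575692 and 3518027 to 3575612) spanned 57.8 and 57.6 kb, with starts 109 bp and ends 80 bp apart. On chromosome 2 (27533442 to 27592963 and 27534406 to 27595106) the clone region was the wider, at 60.7 against 59.5 kb, and both its edges lay at higher coordinates. Of these 5 pairs, the last had the smallest common part of its stretch, at 94.96%.

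Among the pairs with both regions at least 10000 bp wide, the 5 closest agreed to within 23 bp at each edge. On chromosome 17 the population region (5866915 to 5879598) and the clone region (5866913 to 5879608) differed by 2 bp at the start and 10 bp at the end. On chromosome 10 (52089314 to 52101691 and 52089326 to 52101689) the distances were 12 and 2 bp. On chromosome 5 a region of 24.4 kb (76708756 to 76733147 in the population, 76708742 to 76733144 in the clone) differed by 14 and 3 bp. On chromosome 8 (74930956 to 74945163 and 74930948 to 74945154) both edges of the clone lay lower, by 8 and 9 bp. On chromosome 1 (94728740 to 94750091 and 94728763 to 94750092) the start differed by 23 bp and the end by 1 bp. The last of these stood alone, with 49428 bp to the nearest other region of either list.

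Among the 3400 pairs with both regions at least 2000 bp wide, the 5 most narrowed clone calls covered little of a broad population region. The widest population region among the 5 such pairs, of 68.1 kb on chromosome 6 (83322163 to 83390255), met a clone region of 2.46 kb (83323000 to 83325457), which was 27.7-fold narrower. The clone region lay 837 bp from the start and 64798 bp from the end of the population region. On chromosome 9 a region of 32.6 kb (49395794 to 49428433) met one of 2.32 kb (49412691 to 49415008), near its middle. On chromosome 4 a region of 42.6 kb (138965014 to 139007631) met one of 3.08 kb (138997122 to 139000196), nearer its end. On chromosome 1 a region of 24.8 kb (34179543 to 34204368) met one of 2.02 kb (34184223 to 34186241). A second region on chromosome 9, of 31.8 kb (64659840 to 64691648), met one of 2.66 kb (64661584 to 64664244), 1744 bp from its start. In all 5 the nearest other region belonged to the population list, at most 713 bp away. After joining regions within 1000 bp, the regions on chromosomes 6 and 4 were no longer in single pairs. The level of the mark in the rest of these population regions was not measured in the clone.

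The strongest widening in the clone was smaller. The most widened pair lay on chromosome 5, where 2.04 kb in the population (140197903 to 140199939) met a clone region of 19.4 kb (140187145 to 140206583), a 9.54-fold difference that extended on both sides. On chromosome 1 a region of 2.28 kb (165209734 to 165212010) met one of 17.7 kb (165209602 to 165227312), with starts 132 bp apart and the end 15302 bp further out. On chromosome 18 the widths were 3.08 kb (14111885 to 14114961) and 20.6 kb (14096954 to 14117507), with most of the gain at the start. On chromosome 7 they were 2.23 kb (139761303 to 139763534) and 12.3 kb (139755122 to 139767451). On chromosome 12 they were 2.42 kb (16592040 to 16594462) and 10.7 kb (16583918 to 16594572), where the ends differed by 110 bp and the start by 8122 bp. After joining regions within 1000 bp, the widened regions on chromosomes 1 and 18 were no longer in single pairs. Where only 1 culture had a call, the level of the mark in the other was not measured by these lists.

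**Figure D4:**
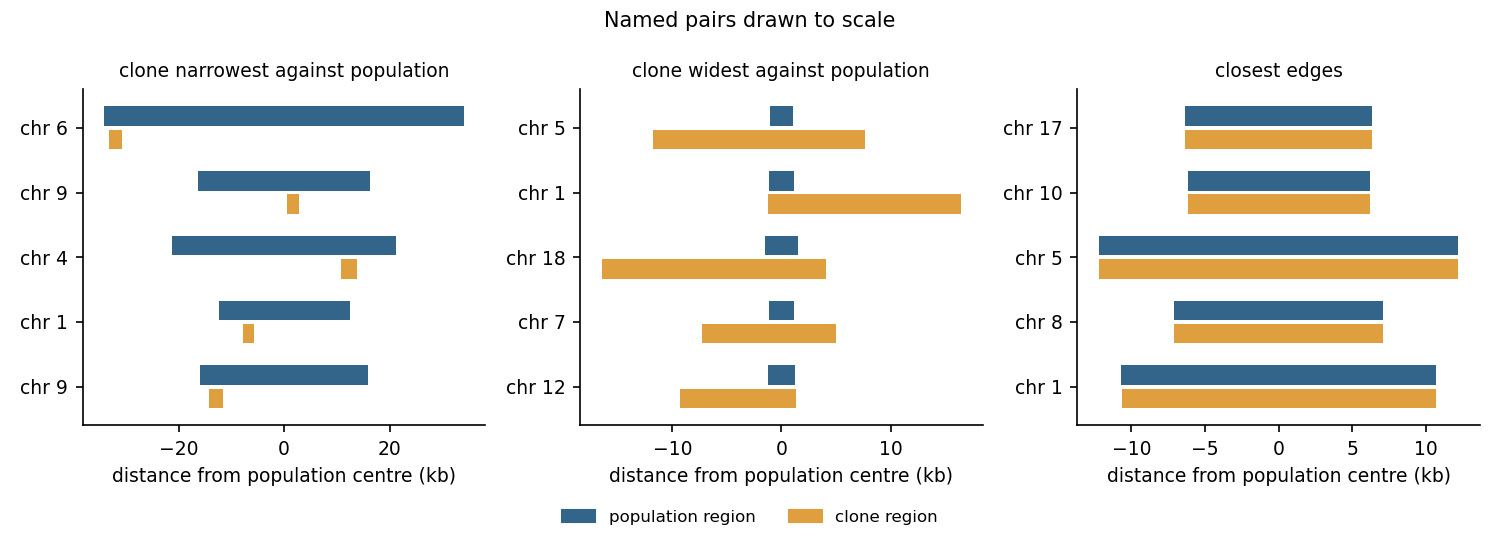
Population and clone regions of 15 named pairs drawn to scale, as distance in kb from the centre of the population region, for the 5 pairs with the narrowest clone relative to the population, the 5 with the widest and the 5 with the closest edges. The narrowed clone regions of 2.02 to 3.08 kb sit at varied places in population regions of 24.8 to 68.1 kb, whereas the closest pairs cannot be told apart at this scale.

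Location along the genome went with width change. Pairs per chromosome ranged from 91 to 421, and the median log2 width ratio was below 0 on 16 of 18 chromosomes, with an interval below 0 on 15. Clone partners were narrowest on chromosomes 16 (-0.51, -0.81 to -0.33, 106 pairs), 3 (-0.41, -0.61 to -0.23, 187 pairs) and 15 (-0.37, -0.63 to -0.22, 152 pairs). Start distances there were 636.5, 589 and 790 bp, all above the value over all pairs. Among pairs whose common part was at least 50% of each region, the medians were -0.22, -0.17 and -0.20 on these 3 chromosomes. With no other region within 10000 bp, chromosome 16 kept 13 pairs, with a median of -0.15 (-0.87 to 0.04). On chromosomes 17 (0.01, -0.001 to 0.05, 323 pairs) and 5 (0.01, -0.01 to 0.03, 421 pairs) the partners were of about equal width, and after joining regions within 1000 bp the medians were -0.0048 and -0.015. The clone was the wider in 55.1% of the pairs on chromosome 17 and 52.5% on chromosome 5, against 17.9% on chromosome 16. The intervals of 8 chromosomes lay below the median over all pairs and those of 4 above it.

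The X chromosome, of interest for this mark, held 91 pairs with a median log2 width ratio of -0.25 (-0.48 to -0.14). Of 17 autosomes, 3 had a lower median, so X stood within their range. Its median was -0.14 under the same overlap limit and -0.46 after joining. Median distances were 436 bp at starts and 415 bp at ends, and the clone was the wider in 20 of the 91 pairs. The widest pair there (91325303 to 91367635 in the population, 91326150 to 91367545 in the clone) spanned 42.3 and 41.4 kb, and its ends were 90 bp apart. Only 9 of the X pairs had a mean width of at least 10000 bp.

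Chromosomes differed more among narrower pairs than among the widest. At a mean width of 2000 to 5000 bp, chromosome medians ran from -0.82 on chromosome 16 (49 pairs) to 0.20 on chromosome 17 (148 pairs). From 10000 bp on they ran from -0.22 on chromosome 3 (40 pairs) to 0.0002 on chromosome 17 (84 pairs). Over all these chromosomes together, single ratios also spread more at 2000 to 5000 bp, with quartiles of -0.73 and 0.28. The quartiles were -0.32 and 0.001 at 10000 to 20000 bp, and -0.10 and 0.006 from 20000 bp on. How much of the chromosome contrast this spread sets was not tested. After the median of each width class had been subtracted from its pairs, the order of the chromosomes stayed much the same (Spearman correlation 0.98 over 18 chromosomes). Chromosomes also differed in their unpaired clone regions. Clone regions without any overlap numbered 3.52 per 100 such population regions on chromosome 16, but 14.6 on chromosome 17 and 17.4 on chromosome 5. Over 18 chromosomes this ratio and the median log2 width ratio were correlated (Spearman correlation 0.72, Pearson r 0.67). There were exceptions: chromosome 6 had the highest ratio, 17.8, at a median of -0.09, and chromosome 19 had 11.6 at -0.25. Chromosome 15, with a median of -0.37, had 8.78, above chromosomes 1, 14 and 18. All values come from the same 2 libraries.

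**Figure D5:**
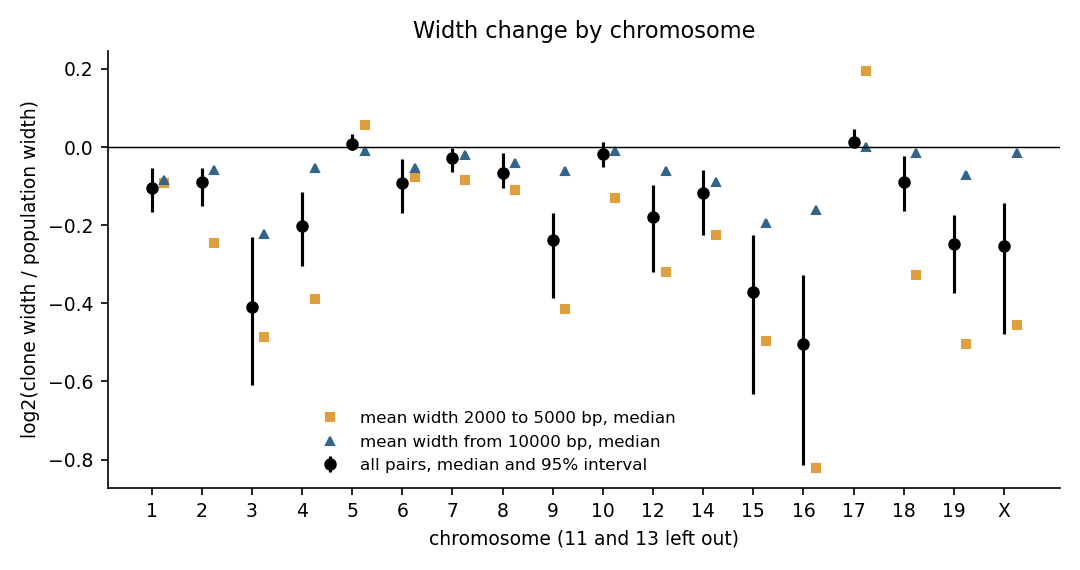
Median log2 ratio of clone to population width (vertical) on each of 18 chromosomes (horizontal), for all pairs with the 95% interval and for 2 classes of mean width. Chromosomes 3, 15 and 16 lie lowest, and the medians of pairs from 10000 bp on stay between -0.22 and 0.0002 on every chromosome shown.

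Within chromosomes the change was uneven too. Segments of 20 Mb with at least 30 pairs numbered 67 and held 3621 pairs. The median log2 width ratio was below 0 in 53 of them, with an interval below 0 in 27 and above 0 in 3. The lowest was -0.83 (-1.20 to -0.50) on chromosome 3 from 80000001 to 100000000, where the clone was the wider in 4 of 42 pairs. It was -0.79 (-1.50 to -0.36) on chromosome 15 from 60000001 to 80000000, with the clone wider in 3 of 37 pairs. Intervals above 0 were found on chromosome 5 from 120000001 to 140000000 (0.05, 0.01 to 0.12) and on chromosome 17 from 60000001 to 80000000 (0.07, 0.01 to 0.15). The third was the neighbouring segment of chromosome 17, from 40000001 to 60000000, whose lower bound lay just above 0. In the first of these, the clone was the wider in 60 of 96 pairs.

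Neighbouring pairs had like width ratios over short distances. For 1411 couples of successive pairs under 20000 bp apart, the Spearman correlation of their log2 width ratios was 0.40, and 65.3% shared the direction of change. The correlation was 0.18 at 20000 to 100000 bp (1057 couples), 0.10 at 100000 to 1000000 bp (1558 couples) and 0.02 beyond that (576 couples). After subtraction of the width-class medians it was 0.37, 0.19, 0.09 and 0.04. The share with the same direction was 57.9%, 58.9% and 59.4% in the 3 farther classes, so it was lower than in the nearest class but did not fall further with distance. Successive couples share libraries and sometimes a pair, and no p is given.

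Distance to the nearest other region of either list made little difference to median edge distances. This gap had a median of 943 bp (quartiles 209 and 5136.5 bp), and the nearest region belonged to the population in 3379 pairs and to the clone in 1241. Median start distances were 399 bp with a neighbour under 2000 bp away (2916 pairs), 388 bp at 2000 to 10000 bp (853 pairs), 361 bp at 10000 to 50000 bp (552 pairs) and 358 bp beyond (299 pairs), with overlapping intervals. Median log2 width ratios ran between -0.10 and -0.05 over these classes. Both edges were within 500 bp in 31.4%, 31.1%, 31.2% and 32.4% of them, from the nearest class to the farthest. Other measures differed more. Neither edge was within 500 bp in 23.8% (22.2 to 25.4%), 22.7%, 18.5% (15.3 to 22.0%) and 18.4%. The clone was at least 2-fold narrower in 17.6% (16.3 to 19.1%), 10.4% (8.46 to 12.7%), 12.1% and 13.7%. Isolated pairs were matched over more of their stretch, 80.0% (76.0 to 83.9%) beyond 50000 bp against 71.4% (69.5 to 73.4%) under 2000 bp. Their mean width was also the larger, with a median of 5524.5 against 4401.75 bp.

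Which culture held the near neighbour went with the direction of change. With a population region under 2000 bp away as the nearest (2072 pairs), the median log2 width ratio was -0.26 (-0.31 to -0.23) and the clone was the wider in 23.9%. With a clone region there (844 pairs) it was 0.07 (0.06 to 0.13), and the clone was the wider in 63.6%. Edges differed as well. Median start distances were 457 bp (401 to 518 bp) beside a population region and 281.5 bp (235 to 349 bp) beside a clone region. End distances were 481.5 and 305.5 bp. The rule for pairs acts on this comparison, since a clone region wide enough to reach a neighbouring population region would not be in a single pair. How much of the contrast the rule sets was not tested.

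At the limits of the rule, the pairs with the fewest bases in common shared 88 bp on chromosome 19 (7586663 to 7590304 in the population, 7585349 to 7586750 in the clone) and 100 bp on chromosome 12 (103143085 to 103144553 and 103141673 to 103143184). Just outside it, 2 regions on chromosome 17 were 1 bp apart (population 26902459 to 26903691, clone 26903693 to 26905837), and 2 others there were 11 bp apart (36117440 to 36119751 and 36119763 to 36123947). Slight overlaps were few, with 17 pairs sharing at most 500 bp (0.37%). Without overlap, 40 couples of a population and a clone region lay within 500 bp of each other. Among regions with a second partner, the smallest second overlap was 5 bp, on chromosome 1 (183132633 to 183141410 in the population).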

How the data were processed

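H4K20me1 ChIP-seq was deposited for 1 population and 1 clone library, each beside a serum library that was not analysed here. Per the labels' protocols, libraries were amplified for 12 cycles and read for 50 cycles. CASAVA 1.8.1, Bowtie and mm9 stand in the submitters' processing notes without roles. Which peak caller, settings and control were used is not given in the sources used here. Coordinates were deposited by the authors as 2 lists of 3 columns (chromosome, start, end), whose only other values are base-pair positions; each was taken as the culture in its name. Region width and number can move with depth and settings, which are unknown.

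Starts were read as counted from 0 and are printed counted from 1. Overlaps, edge distances (clone minus population) and log2 width ratios were computed in Python 3.11.15 with numpy 2.4.6, scipy 1.17.1 and pandas 2.3.3. The depth per library is unknown. The functions were tested on simulated data: 0 of 200 random pairs of lists differed from a direct count, and known offsets were recovered for 2257 of 2257 regions. Pairs were named as the 5 with most common bp, the 5 highest and 5 lowest ratios (both regions from 2000 bp), the 5 closest (both from 10000 bp), the widest on X, and the 2 nearest each side of the overlap limit. The members and classes were chosen with earlier results of these data known. Segments, neighbour comparisons and the width-class subtraction were added after seeing the data. Genes were not assigned: the gene table was GRCm38.p6, and 27 pairs on chromosome 7 lay beyond its last gene there. Alternatives were stricter overlap, joined regions, a minimum width, other chromosomes, isolated pairs, other tolerances and other width classes.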

Additional observations from a re-analysis of the deposited data

How the results depend on the processing

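Of 99 recomputed main values, 53 stayed within the reported 95% interval (1.5 times for counts), 45 left it and 1 changed sign. Adding chromosomes 11 and 13 or leaving out X moved none of them. Causes were not tested. With a reciprocal overlap of 50% (3474 pairs), the median start distance was 248.5 bp and the end distance 280.5 bp, 41.7% had both edges close, the log2 width ratio was -0.053 (-0.054 with a neighbour under 2000 bp away) and the common share 84.1%. After joining regions within 1000 bp (4340 pairs) these were 562 bp, 610.5 bp, 22.6%, -0.16 and 71.7%, the clone was the wider in 32.5%, all 18 chromosome medians lay below 0, and the ratio by neighbour distance was -0.18, -0.17 and -0.14 up to 50000 bp. Without regions under 2000 bp (4061 pairs) 29.1% had both edges close, the clone was the wider in 34.1%, the common share was 78.1% and the ratio at a neighbour distance of 2000 to 10000 bp was -0.10. With no other region within 10000 bp, 851 pairs were left, with a start distance of 358 bp and a common share of 78.8%. Both edges were close in 14.2% at 200 bp and 51.5% at 1000 bp.

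By population width, the log2 width ratio was 0.74 under 2000 bp, -0.29 at 5000 to 10000 bp, -0.13 at 10000 to 20000 bp and -0.055 from 20000 bp on. Start distances were 365 bp under 2000 bp, 316 bp at 2000 to 5000 bp, 424 bp at 10000 to 20000 bp and 365 bp beyond, and end distances were 421, 345, 522 and 418 bp. By clone width, the ratio was -0.56 under 2000 bp, the reverse of the reported sign, then -0.049 at 5000 to 10000 bp, -0.026 at 10000 to 20000 bp and -0.0053 from 20000 bp on. Start distances were 409 bp under 2000 bp, 417 bp at 5000 to 10000 bp and 215 bp at 10000 to 20000 bp, and end distances 469, 394 and 289 bp. The largest median distances were thus at 5000 to 10000 bp by mean and population width, but not by clone width. By population width the intervals of this class met those at 10000 to 20000 bp. They were 450 to 573 bp against 351 to 568 bp for starts, and 466 to 607 bp against 397 to 634 bp for ends. Of 88 values for single chromosomes and named pairs, 18 moved beyond their interval (named pairs: 1.5 times). Of the 88, 3 changed sign, all after joining and all from values near 0: chromosome 5 went to -0.015, chromosome 17 to -0.0048 and the closely matched pair on chromosome 8 to 0.016. After joining, 16 of 23 named pairs were still pairs. Those lost included the most narrowed pair, on chromosome 6, the narrowed pair on chromosome 4 and the widened pairs on chromosomes 1 and 18. No paired analysis was possible because a group held a single library, and no replicate could be left out.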

Other observations

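Edge distances of 10 to 19 bp were not symmetrical, a pattern seen after the values had been examined. The clone start lay 10 to 19 bp further out than the population start in 113 pairs, and 10 to 19 bp further in in 60. The counts further out were 71 at 0 to 9 bp, 51 at 20 to 29 bp and 55 at 30 to 39 bp. Starts further in numbered 66 at 20 to 29 bp and 55 at 30 to 39 bp. Ends gave a like picture, with 103 pairs further out and 56 further in at 10 to 19 bp, against 66, 45 and 54 further out in the neighbouring classes. Ends further in numbered 41 at 20 to 29 bp and 54 at 30 to 39 bp. Among the classes counted both ways, a clear excess further out was thus limited to 10 to 19 bp. Both edges lay 10 to 19 bp further out in 7 pairs and further in in 0. Their relation to fragment length or caller settings was not tested.

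Very narrow clone regions were rare and matched closely. Over all chromosomes 8 clone regions were under 1000 bp wide, and 7 of them belonged to a pair. The narrowest, on chromosome 8 (124348832 to 124349252), was 421 bp wide and met a population region of 397 bp (124348839 to 124349235). On chromosome 5 a clone region of 621 bp (125867473 to 125868093) met one of 591 bp (125867490 to 125868080). Of the 7, 4 lay in a single stretch of 231.8 kb on chromosome 8 (19786109 to 20017944). That stretch held 31 population and 15 clone regions, and every clone region in it was in a pair. Its regions were 477 to 2909 bp wide in the population and 499 to 2462 bp in the clone. Starts there differed by a median of 34 bp and ends by 15 bp, against 388 and 421.5 bp over all pairs. In the 304 pairs with both regions under 2000 bp, which are nearer in width, the medians were 178 and 186 bp. The clone end lay 10 to 19 bp further out in 9 of the 15 pairs, and the clone start in 6.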
